A study of Mus musculus with 6 samples.

Results

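Cers2, Cers4, Cers5, Cers6, Sptlc1, Sptlc2, Degs1, Sgms1, Ugcg and Asah1 encode enzymes that make ceramide or convert it into other sphingolipids. Each was measured by 1 probe set, giving 10 of the 21789 probe sets that carry a single gene symbol (19938 genes), and all 10 were found by exact symbol. The genes were chosen by their place in the pathway with the differences between Dali knockdown and control arrays already known. Those differences are therefore given as a description, with no p-value. Counts of these genes, also of those past the threshold of the fit across all probe sets, support nothing further. They stand beside the same count over all probe sets, except those on the spread by replicate number.

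RNA came from N2A cells, a mouse neuroblastoma line that can be made to differentiate into neuron-like cells. In the Dali knockdown group (3 arrays) the cells were transiently transfected with 1.5 ug of a plasmid expressing a short hairpin RNA against the long non-coding RNA Dali. The control group (3 arrays) received a non-targeting vector in the same way, and by the sample descriptions RNA was taken from both groups 2.5 days later. These arrays used 1 hairpin construct, and its effects outside Dali cannot be told apart here from loss of Dali. The paper re-measured some changed genes by quantitative PCR with further Dali hairpins and found nearly all of them changed similarly. It holds that off-target effects were unlikely to dominate. Its text does not name the genes re-measured. Cells that took up no plasmid were measured with the others, and fewer responding cells cannot be told apart from a smaller change per cell. Values are log2 intensities after RMA, a method that corrects background, equalises the arrays and summarises the probes of each gene. A difference of 1 on this scale is a doubling, and differences are given as knockdown minus control. The array annotation held 0 probe sets for Dali, so its depletion cannot be read from these arrays. The paper reports lower Dali levels after transient knockdown, measured by quantitative PCR. Its figure legend gives a longer time after transfection than the 2.5 days above. The descriptions call the samples biological replicates without naming cultures or days, so the errors cover no more than the spread between these samples. Each SE is the moderated one of limma, the program used for the fits. It draws the spread of a probe set towards a value common to all probe sets.

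Ceramide is the hub of sphingolipid metabolism. Serine palmitoyltransferase, built on the subunits Sptlc1 and Sptlc2, joins serine to a fatty acyl-CoA in the endoplasmic reticulum, and ceramide synthases then attach a fatty acid whose length depends on the synthase. The desaturase Degs1 turns the product into ceramide, Sgms1 and Ugcg add the head groups that begin sphingomyelin and most glycosphingolipids, and the lysosomal ceramidase Asah1 splits ceramide again. Sphingomyelin and gangliosides, which are glycosphingolipids with sialic acid, are abundant in neuronal membranes.

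The promoters of Cers6, Sptlc2 and Cers2 are shown because these genes had the largest differences of the 10. Each run is the 250 bases before a RefSeq transcription start, on build GRCm38.p6, written 5′ to 3′ on the strand of the gene. Cers2 is listed with 2 starts. The annotated spans of Cers6 and Cers2 begin upstream of these windows. Capitals mark exact matches on either strand to CCAAT (the CCAAT box), GGGCGG (the GC box) or CACGTG (an E-box).
Cers6, chr2:68861191-68861440, plus strand: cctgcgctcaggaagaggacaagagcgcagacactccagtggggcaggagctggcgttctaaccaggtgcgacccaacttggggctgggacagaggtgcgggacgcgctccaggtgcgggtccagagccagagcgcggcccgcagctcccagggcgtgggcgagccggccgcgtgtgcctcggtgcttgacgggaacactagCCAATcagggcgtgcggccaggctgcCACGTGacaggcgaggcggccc
Sptlc2, chr12:87388356-87388605, minus strand: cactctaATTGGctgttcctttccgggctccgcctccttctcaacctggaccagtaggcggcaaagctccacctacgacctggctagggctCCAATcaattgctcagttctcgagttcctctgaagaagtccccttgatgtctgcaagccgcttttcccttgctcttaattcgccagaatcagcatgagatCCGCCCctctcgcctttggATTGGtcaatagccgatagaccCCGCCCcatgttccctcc
Cers2, first start, chr3:95314940-95315189, plus strand: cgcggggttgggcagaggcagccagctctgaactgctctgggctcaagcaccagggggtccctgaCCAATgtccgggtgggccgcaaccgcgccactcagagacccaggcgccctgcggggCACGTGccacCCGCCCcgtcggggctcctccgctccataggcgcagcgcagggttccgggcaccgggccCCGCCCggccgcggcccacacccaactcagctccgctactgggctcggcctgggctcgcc
Cers2, second start, chr3:95318580-95318829, plus strand: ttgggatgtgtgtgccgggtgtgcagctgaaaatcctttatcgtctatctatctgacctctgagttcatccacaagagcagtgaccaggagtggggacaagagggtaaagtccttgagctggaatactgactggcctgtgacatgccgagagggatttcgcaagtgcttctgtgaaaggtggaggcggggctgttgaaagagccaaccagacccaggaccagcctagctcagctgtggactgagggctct

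The Cers6 window held 1 E-box, whose first base lies 22 bases before the start, and 1 CCAAT box, 48 bases before it, with no GC box. The Sptlc2 window held 3 CCAAT and 2 GC boxes and no E-box. The first Cers2 start had all of these, with 1 E-box, 1 CCAAT box and 2 GC boxes, and the second start had none. RefSeq promoters were found for 9 of the 10 genes, all but Asah1, at 13 starts. An E-box stood before a start of 3 of the 9 genes (Cers2, Cers6 and Degs1), and in 6.02% of all 32851 promoter windows of this length. A CCAAT box stood before 5 of the 9 genes and in 33.8% of all windows, and a GC box before 7 of the 9 and in 32.7%. Genes with several starts had several windows in which a match could fall. The octamer ATGCAAAT, to which POU factors such as Pou3f3 bind, was in 1.6% of all windows and before 0 of these 9 genes. The same held for TGACGTCA, the cAMP response element (1.55%), and for the E2F site letters TTTGGCGC (0.417%) and TTTCGCGC (0.256%). The share of G and C was 70.4% in the Cers6 window, 55.2% in that of Sptlc2, and 74.8% and 54% in those of Cers2. The median over all windows was 52.4%. Over the 13 windows of the 9 genes the share ran from 45.6% (a start of Sgms1) to 80.4% (Ugcg).

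Among the ceramide synthases measured, Cers6 stood furthest from control. Cers6, which prefers palmitoyl-CoA, had log2 values of 10.18, 10.36 and 10.27 in knockdown arrays, against 10.88, 11.07 and 11.09 in control arrays. The highest knockdown array lay below the lowest control array by more than the spread within either group (10.27 ± 0.09 in knockdown and 11.01 ± 0.12 in control, SD, n = 3 each). The difference was -0.74 (SE 0.09), a change of -40.3% in level, and within replicate numbers 1, 2 and 3 it was -0.71, -0.71 and -0.82.

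The other ceramide synthases of the 10 genes were also lower in each of the 3 replicate numbers, but by less, and their groups overlapped. Outside the 10, Cers3 differed by 0.04 with both signs among the replicate numbers. No probe set carried the symbol of Cers1 alone, and probe sets with several symbols were not searched. Cers2, which makes ceramides with very long acyl chains, had 12.06, 12.36 and 12.58 in knockdown arrays, against 12.46, 12.59 and 12.93 in control arrays, a difference of -0.33 (SE 0.16). The groups overlapped because the highest knockdown array, number 3, lay above the lowest control array, number 1. Cers4 had 12.02, 12.28 and 11.89 in knockdown arrays, against 12.24, 12.41 and 12.10 in control arrays, a difference of -0.19 (SE 0.12). Cers5, the synthase closest to Cers6 in its use of palmitoyl-CoA, had 12.49, 12.62 and 12.77 in knockdown arrays, against 12.67, 12.75 and 12.99 in control arrays, a difference of -0.17 (SE 0.11). For Cers4 and Cers5 the within-number differences were of one size, between -0.23 and -0.13 for Cers4 and between -0.21 and -0.14 for Cers5.

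The subunits of serine palmitoyltransferase differed by unequal amounts. Sptlc2, the subunit that holds the pyridoxal phosphate cofactor, had 11.00, 11.29 and 11.31 in knockdown arrays, against 11.37, 11.65 and 11.76 in control arrays. The groups did not overlap, though the highest knockdown array and the lowest control array lay close together. The difference was -0.39 (SE 0.13), a change of -23.7% in level, with -0.37, -0.35 and -0.45 within the replicate numbers. Sptlc1, the partner subunit without the cofactor, had 9.21, 9.51 and 9.72 in knockdown arrays, against 9.29, 9.55 and 9.85 in control arrays, a difference of -0.08 (SE 0.17). Its arrays spanned about the same range in both groups, and its within-number differences lay between -0.13 and -0.04.

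Downstream of the synthases the differences were small, with 2 genes higher and 2 lower. Degs1, which introduces the double bond of ceramide, had 12.23, 12.24 and 12.60 in knockdown arrays, against 12.18, 12.25 and 12.67 in control arrays, a difference of -0.01 (SE 0.15) with both signs among the replicate numbers and a value of 0.02 when each array was centred on its median. The 95% interval of the fit without the replicate block ran from -0.36 to 0.34. Sgms1, which transfers phosphocholine to ceramide in the Golgi, had 10.41, 10.62 and 10.68 in knockdown arrays, against 10.34, 10.48 and 10.56 in control arrays, a difference of 0.11 (SE 0.10). Ugcg, which adds glucose to ceramide, had 10.71, 10.57 and 10.76 in knockdown arrays, against 10.62, 10.49 and 10.64 in control arrays, a difference of 0.10 (SE 0.09). Both of these head group transferases were higher in the knockdown array of all 3 replicate numbers while their groups overlapped. Sgms2, which belongs to a list below, was lower in all 3, with a difference of -0.18 and overlapping groups. The ceramidase gene Asah1 had 12.64, 12.66 and 12.56 in knockdown arrays, against 12.58, 12.77 and 12.79 in control arrays, a difference of -0.09 (SE 0.09). It was lower in 2 replicate numbers and higher in number 1 (0.07).

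**Figure D1:**
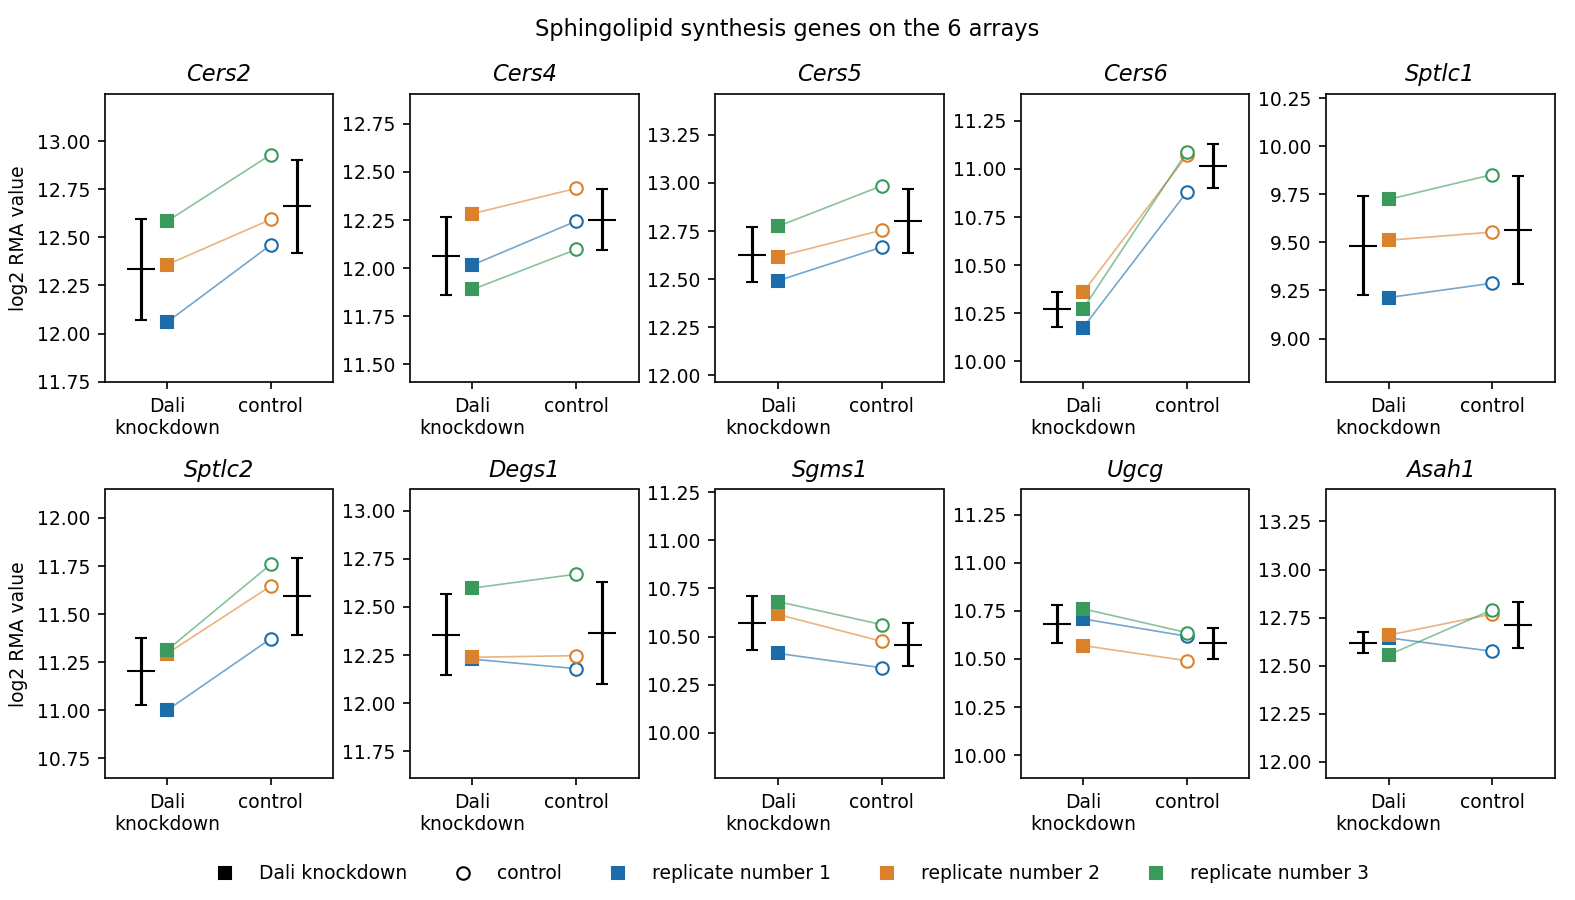
Log2 RMA values (vertical axis) of the 10 genes on each array, with Dali knockdown arrays as filled squares on the left of each panel and control arrays as open circles on the right. Colours and joining lines mark the replicate number, black bars are the mean and SD of each group (n = 3), and all panels span the same 1.5 log2 units. The groups are apart for Cers6 (10.18 to 10.36 in knockdown, 10.88 to 11.09 in control) and, narrowly, for Sptlc2.

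Over the 10 genes, 8 had a lower mean in knockdown cells and 2 a higher one, with a median difference of -0.13. Over the 21789 probe sets with 1 gene symbol, 44.7% had a lower mean and the median difference was 0.02. Within replicate numbers 1, 2 and 3 the median over the 10 genes was -0.12, -0.12 and -0.21. Without control replicate 3 it was -0.067 and without control replicate 1 it was -0.21. A total of 6 of the 10 genes (Cers2, Cers4, Cers5, Cers6, Sptlc1 and Sptlc2) were lower in all 3 replicate numbers, as were 19.7% of all 23410 annotated probe sets. Sgms1 and Ugcg were higher in all 3, as were 21.7%. Groups that did not overlap, with knockdown lower, were found for 2 of the 10 genes and for 6.84% of annotated probe sets.

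A probe set was called when limma gave an adjusted p under 0.1 and a fold of at least 1.3. Of the 10 genes, 8 passed the filter that removes probe sets with little variation, while Cers5 and Ugcg did not. Of the 8, only Cers6 was called, as lower, where 0.769% of the 11705 probe sets tested were called as lower. Cers6 had the 31st largest size among these 90. It was not called without knockdown replicate 1, when 4 probe sets in all were, and its difference there was -0.70. With the replicate number as a block in the fit, Cers6 and Sptlc2 were called as lower, where 4.89% of probe sets were. Sptlc2, at 1.31-fold, lay just past the fold threshold, and it was not called when each array was also centred on its median.

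**Figure D2:**
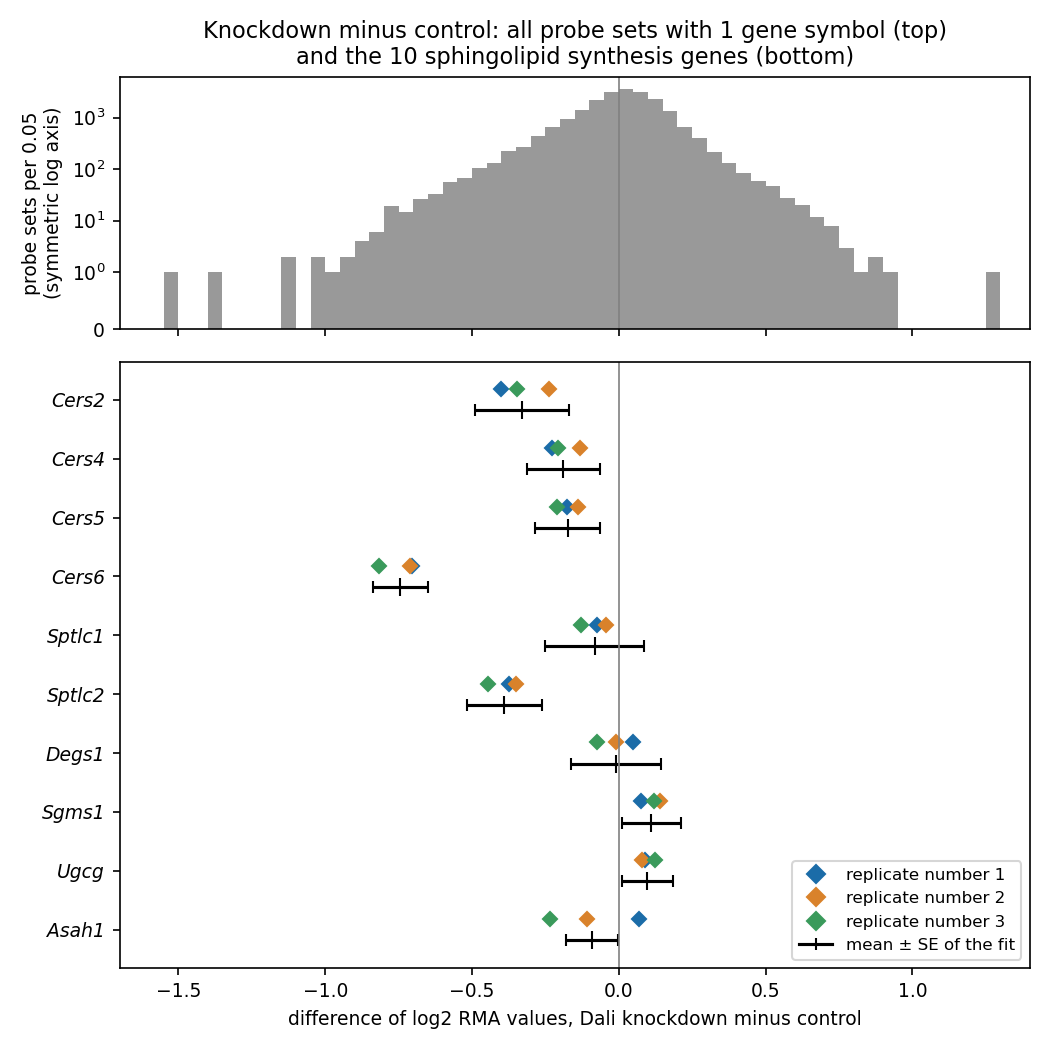
Differences of log2 RMA values, Dali knockdown minus control (horizontal axis), as a histogram over the 21789 probe sets with 1 gene symbol (top, number of probe sets on a symmetric log axis) and for the 10 genes (bottom). Coloured diamonds are differences within one replicate number and black bars the group difference ± SE. Cers6 lies at -0.74, Sptlc2 at -0.39 and Cers2 at -0.33, and Degs1 spans 0.

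For most of these genes, arrays with the same replicate number lay close to each other in their deviation from the group means. For 8 of the 10 genes, all but Cers6 and Sptlc2, the mean deviation of the numbered pairs from their group means ranged over more than the difference between the groups. In Sptlc1 it ranged over 0.54, against a group difference of 0.08 in size, and in Degs1 over 0.43, against 0.01. Such a range can exceed a small group difference also where the number has no effect. The counts of genes in this paragraph were not made over all probe sets. Number 3 was the highest for 7 of the 10 genes and number 1 the lowest for 8. Cers4 ran otherwise, with number 2 the highest and number 3 the lowest. For 7 of the 10 genes the knockdown and the control array of each number lay on the same side of their group means, the exceptions being Cers2, Sptlc1 and Asah1. With the number as a block the SE of the difference was 0.07 for Degs1 in place of 0.15, 0.07 for Cers2 in place of 0.16 and 0.07 for Sptlc1 in place of 0.17. For Asah1 it was 0.08 in place of 0.09. The SEs with the block lay close together across these genes. As limma draws each towards a common value, they do not give the spread of each gene alone.

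**Figure D3:**
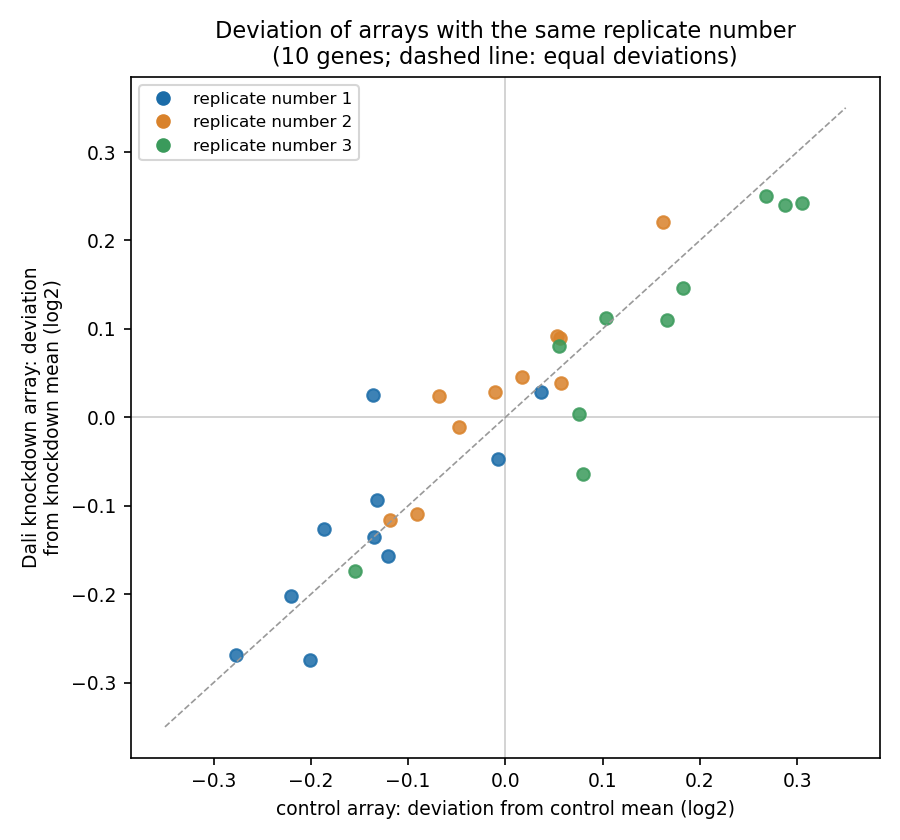
Deviation of each Dali knockdown array from the knockdown mean (vertical axis, log2) against that of the control array with the same replicate number from the control mean (horizontal axis, log2), with 3 points per gene for the 10 genes, coloured by number. Most points lie near the dashed line of equal deviations, with number 3 mostly at the upper right (up to 0.30 on the control axis, for Degs1) and number 1 mostly at the lower left. The 30 points share 6 arrays and are not independent.

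The other genes of sphingolipid metabolism were taken as 5 lists by role, which held none of the 10 genes. Of the listed genes, 75 had a probe set that carried their symbol alone and were analysed here. These 75 genes had 78 probe sets, of which 53 were tested and 25 removed by the variance filter. Of the 53, 1 fell, 0 rose and 52 were not called, where 1.14% of all probe sets tested were called in either direction. At an unadjusted limma p under 0.05, 8 of the 53 were lower and 1 was higher, where 7.31% of all 11705 probe sets tested were lower and 5.4% higher. With the replicate block 5 of the 53 fell and 0 rose, where 7.65% of all probe sets were called. The median difference of the 78 probe sets was -0.04, and 45 had a lower mean and 33 a higher one.

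Sgpp1, which removes the phosphate of sphingosine 1-phosphate and so returns sphingosine to ceramide synthesis, was the gene that fell. It had 10.86, 11.10 and 11.16 in knockdown arrays, against 11.55, 11.59 and 11.77 in control arrays, so that the groups did not overlap. The difference was -0.60 (SE 0.14, limma adjusted p = 0.075), a 1.52-fold lower level, and it was lower in 3 of 3 replicate numbers. It was not called without knockdown replicate 1, control replicate 1 or control replicate 2, with limma adjusted p between 0.037 and 0.42 over the 6 arrays left out in turn, nor without the variance filter (0.13). In the same list of 15 genes for sphingosine 1-phosphate metabolism and receptors, 8 other probe sets were tested and not called. Plpp1, a phosphatase of lipid phosphates at the cell surface, fell with the replicate block (-0.41, limma adjusted p = 0.021, or 0.25 without the block and 0.012 to 0.72 over the settings whose filter kept it). Its values were 11.80, 12.00 and 12.07 in knockdown arrays, against 12.12, 12.39 and 12.61 in control arrays.

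Among 18 measured genes of sphingomyelinases, ceramidases and lysosomal breakdown, 0 of 14 probe sets tested were called by limma, with 3 lower and 1 higher at an unadjusted p under 0.05. With the replicate block both Smpd1 and Smpd2 fell. Smpd1, the acid sphingomyelinase that releases ceramide in lysosomes, had 10.83, 11.29 and 11.01 in knockdown arrays, against 11.41, 11.93 and 11.58 in control arrays. The groups did not overlap, and the difference was -0.60 (SE 0.16, limma adjusted p = 0.11, or 0.0089 with the block and 0.0016 to 0.54 over all settings). Smpd2, a neutral sphingomyelinase, had 9.20, 9.70 and 9.29 in knockdown arrays, against 9.87, 10.02 and 9.70 in control arrays. The groups overlapped at 9.70, and the difference was -0.47 (SE 0.16, limma adjusted p = 0.20, or 0.021 with the block and 0.011 to 0.68 over all settings). Gba2, a glucosylceramidase outside the lysosome, had the other sign at 0.38 (SE 0.14, limma adjusted p = 0.25, or 0.032 with the block and 0.013 to 0.55 over all settings), with 9.26, 9.54 and 9.58 in knockdown arrays, against 9.04, 9.14 and 9.07 in control arrays. It lay just under the fold threshold with the block, and was called as higher when each array was also centred on its median.

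Of the other lists, none had a probe set called without the block. Of the de novo synthesis list, 9 of 10 genes were measured, 5 probe sets were tested, and 0 had an unadjusted limma p under 0.05 or were called with the block. Its differences lay between -0.17 and 0.13. Without the filter its smallest p-values belonged to Degs2, a desaturase that can also hydroxylate (-0.14, limma adjusted p = 0.65), and Sptlc3, an alternative subunit of serine palmitoyltransferase (0.13, limma adjusted p = 0.77). Among 19 genes of ceramide transfer and head group synthesis, 14 probe sets were tested and 0 were called with or without the block, with 1 lower at an unadjusted limma p under 0.05. Samd8, an enzyme that makes ceramide phosphoethanolamine, differed by -0.34 (limma adjusted p = 0.29, or 0.039 with the block). Cerk, the ceramide kinase, differed by -0.26 (limma adjusted p = 0.43, or 0.066 with the block). Both lay under the fold threshold, with groups that did not overlap. Among 14 genes of fatty acid elongation and 2-hydroxylation, 11 probe sets were tested, with 1 lower at an unadjusted limma p under 0.05. Hacd4, a dehydratase of fatty acid elongation, fell with the block (-0.52, limma adjusted p = 0.013, or 0.27 without the block and 0.0038 to 0.79 over all settings). Its groups overlapped, with 8.38, 8.84 and 9.07 in knockdown arrays, against 8.92, 9.22 and 9.71 in control arrays. Elovl5, an elongase, differed by -0.26 (limma adjusted p = 0.45, or 0.072 with the block), under the fold threshold and with groups that did not overlap.

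**Figure D4:**
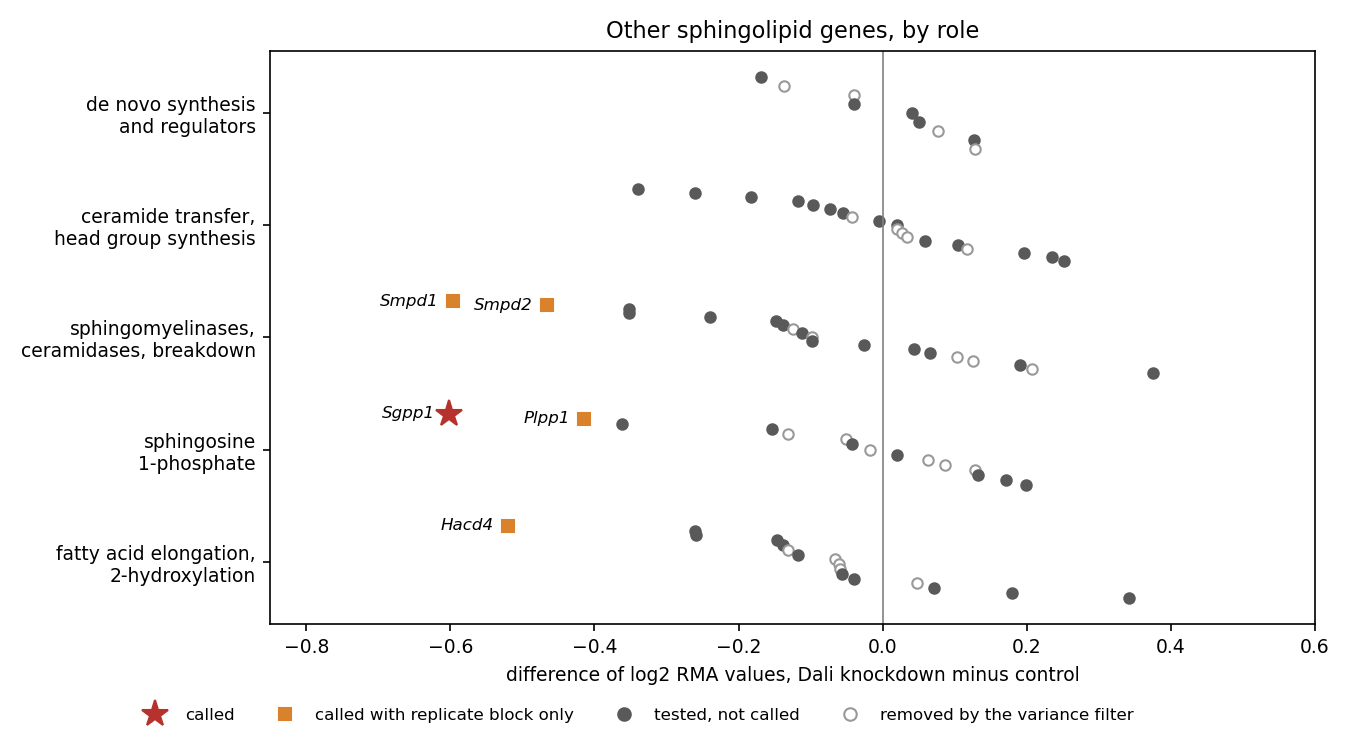
Differences of log2 RMA values, Dali knockdown minus control (horizontal axis), for the 78 probe sets of the other sphingolipid genes, in rows by role. A star marks a called probe set, squares those called with the replicate block only, filled circles those tested and not called, and open circles those removed by the variance filter. The star is Sgpp1 at -0.60, and the 4 squares lie between -0.60 and -0.41.

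Among all genes, 43 probe sets rose and 90 fell of the 11705 tested, or 57 and 71 once the array medians were made equal. Correlations between arrays over annotated probe sets lay between 0.9904 and 0.9975. As a check of the cell line, 10 of 12 markers of noradrenergic neuroblastoma were measured, with gene means of 9.03 to 13.29, and 0 were called. Their mean per array lay between 11.02 and 11.19 in knockdown arrays, against 11.23 and 11.30 in control arrays, so that it moved with the groups, and its part in the differences above was not tested. The 8 neuronal markers had gene means of 6.00 to 13.48, with array means that overlapped between the groups. Nefm and Nefl were the lowest of these, inside the range of the markers of other cells. Dcx, with means of 7.11 in knockdown and 6.86 in control arrays, also lay inside it. Markers of fibroblasts, glia, endothelial cells and leukocytes had gene means of 5.09 to 8.67, with array means that overlapped between the groups in each list. The table holds no detection calls, so absence of these cells was not tested. Of all 39 marker genes measured, 0 were called without or with the block, where 1.14% and 7.65% of all probe sets tested were. The variance filter removed some of the 39 before the test, among them Hand2, Gata3, Chga and Mycn, so these could not be called. The count of 0 does not show that the markers were unchanged.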

How the data were processed

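RNA of N2A cells was hybridised to Affymetrix Mouse Gene 1.0 ST arrays, 3 for Dali knockdown and 3 for control. The deposited table holds log2 values that the authors made by RMA with quantile normalisation (limma and RMA, per the labels, versions not given), in 35556 rows. The platform annotation gave 1 gene symbol for 21789 probe sets, several for 1621 and none for 12146. A gene counts as measured here when a probe set carries its symbol alone. A listed gene or marker that shares its only probe set with another gene is therefore left out. All 10 genes matched RefSeq by Entrez identifier with their symbol unchanged. The members and lists were chosen with earlier results of these data known.

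The groups were compared with limma 3.58.1 (R 4.3.3) on the values as deposited. The study removed genes with little variation. The paper names a variance cutoff for this step, without saying how the variation was computed. Here the 11705 annotated probe sets with an interquartile range above the median were tested, with Benjamini-Hochberg adjusted p under 0.1 and a fold of 1.3 as the threshold. Values, SE and 95% intervals of the 10 genes came from the fit without the filter, and an SE printed beside an adjusted p came from the fit that gave it. The labels give both groups replicate numbers 1 to 3. Arrays with the same number deviated together from their group means (r = 0.14, 0.65 and 0.65 over annotated probe sets), so the number was also fitted as a block, leaving 2 residual degrees of freedom in place of 4. Of the other sphingolipid genes, the text names in each list the called probe sets, or where none was called the 2 with the smallest p without the filter, and those called only with the block. The number of arrays limits the precision.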

Additional observations from a re-analysis of the deposited data

How the results depend on the processing

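The differences of Cers2, Cers4, Cers5, Cers6, Sptlc2, Sgms1, Ugcg and Asah1 kept their sign under every setting tried, and Cers6 lay between -0.81 and -0.70. Sptlc1 (-0.22 to 0.06) and Degs1 (-0.13 to 0.14) crossed 0 when single arrays were left out. The median over the 10 genes lay between -0.21 and -0.067 with single arrays left out. Over all probe sets 133 were called. The count was 41 without the variance filter, 370 with the variance in place of the interquartile range, and between 4 and 508 with single arrays left out. It was 896 with the replicate block, and 874 with the block and each array centred on its median, a pair of choices added after seeing the data. These split into 324 higher and 572 lower with the block, and 412 and 462 with centring too. With all rows entering the filter 0 were called by limma, and 1597 of 17778 had an unadjusted p under 0.05. Of the 10 genes, 1 was called, 2 with the block, 0 with all rows in the filter (7 tested, 2 at an unadjusted limma p under 0.05), and between 0 and 1 with single arrays left out. Of the pathway list probe sets, 1 was called, 3 with the variance (Sgpp1, Smpd1 and Hacd4), 5 with the block, 6 with the block and centring (adding Gba2, higher), and between 0 and 4 with single arrays left out. It was 0 by limma without the variance filter (15 of 78 at an unadjusted p under 0.05, against 2507 of 23410 over all) and 0 with all rows in it (7). Among named list genes, calls were gained 15 times and lost 5 times. Leaving out probe sets with a mean under 6 gave 121 calls over all probe sets, 1 among the 10 genes and 1 in the lists. Plpp1 was removed by the filter without control replicate 2 or 3.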

Other observations

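With the replicate block, 11 probe sets of the sphingolipid lists had a limma adjusted p under 0.1 at less than 1.3-fold, 7 lower and 4 higher in knockdown cells. Gba2, Samd8, Cerk and Elovl5, named above, are among them. Some of the others are described here after their values were seen. Of the lower ones, Galc, the lysosomal galactosylceramidase, had 8.93, 9.20 and 9.05 in knockdown arrays, against 9.30, 9.48 and 9.45 in control arrays, a difference of -0.35 with groups that did not overlap. Sgpp2, the second sphingosine 1-phosphate phosphatase, differed by -0.36 and Arsa, the lysosomal sulfatase of sulfatide, by -0.35, both with overlapping groups. Of the higher ones, St3gal5, which makes the ganglioside GM3, had 10.76, 10.81 and 11.02 in knockdown arrays, against 10.47, 10.61 and 10.75 in control arrays, a difference of 0.25 with groups that did not overlap. Cert1, which carries ceramide to the Golgi, had 10.84, 10.66 and 10.54 in knockdown arrays, against 10.51, 10.44 and 10.38 in control arrays, a difference of 0.24. Both were higher in 3 of 3 replicate numbers. None of the 11 was called without the block. The share of all probe sets that met the same limit was not counted, so the number 11 is a description only.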
